A study of Mus musculus with 7 samples.

Results

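The proteasome genes of regulatory T cells (Tregs, T cells that hold other immune cells in check) were followed in the spleen after treatment with FP, which fuses interleukin-2 (IL-2) to CD25, the alpha chain of the IL-2 receptor. Members were all protein-coding genes whose symbol starts with Psma, Psmb, Psmc, Psmd, Psme, Psmf or Psmg followed by a digit, which gave 50 of the 51138 genes counted. The symbol alone set the membership, but the group was proposed after the same FP and PBS libraries had been examined, so its counts are a description of these libraries and carry no test of the group. Low counts removed Psma8, the alpha subunit known from testis (0 to 5 counts per library), and Psmb11, the catalytic subunit of the thymic cortex (0 to 5 counts per library), and 48 members were tested.

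All samples were splenic Tregs sorted from C57/BL6 mice that carry a red fluorescent reporter of Foxp3 (RFP-FoxP3+). The FP group was 4 samples taken 72 h after an injection of 20 ug of FP, and the control group was 3 samples taken 72 h after 100 uL of PBS. Both groups carry the reporter, and neither the age nor the sex of the animals is given in the labels. The labels do not say whether the samples of a group came from different mice, and the p values cover the spread between samples, which may be partly technical.

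The proteasome degrades proteins that carry chains of ubiquitin. Its 20S core is a barrel whose outer rings of alpha subunits gate the entrance and whose inner rings of beta subunits hold the proteolytic sites. The 19S regulatory particle caps the barrel: its ATPases unfold substrates and its lid and base proteins bind and remove ubiquitin. Lymphocytes also express the immunoproteasome, in which Psmb8, Psmb9 and Psmb10 take the places of the constitutive catalytic subunits Psmb5, Psmb6 and Psmb7, and PA28, a cap that opens the core without ATP. Both change the peptides that reach major histocompatibility complex (MHC) class I molecules.

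After FP, 40 of the 48 tested members were higher and 0 were lower. Over all 15954 genes tested, 21.0% were called higher and 18.5% lower. Among the 11975 protein-coding genes tested, the kind to which the members belong, 3147 were higher and 2367 lower, with a median log2 fold change of 0.026. No member was lower at an unadjusted p under 0.05 either, and the DESeq2 test also called 0 lower. The 48 log2 fold changes ran from 0.04 for Psme2b to 1.41 for Psma2, with a median of 0.91, where the median of all genes tested was -0.05. All were above 0 with trimmed mean of M values (TMM) scaling, whereas with library size alone Psmd5, Psme2b, Psme4, Psmf1 and Psmg2 turned below 0, as did Psme2b, Psme4 and Psmf1 with upper-quartile factors. These scalings moved the median of all genes to -0.31 and -0.25 and that of the members to 0.63 and 0.70. In every FP library 42 of the 48 members were above every PBS library in CPM (counts scaled to a common library size), against 23.2% of all genes tested. Total RNA of sorted cells was measured, and CPM are relative to the other RNA of a library. More RNA per cell, a larger share of cells with high levels and a change in that other RNA cannot be told apart.

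**Figure D1:**
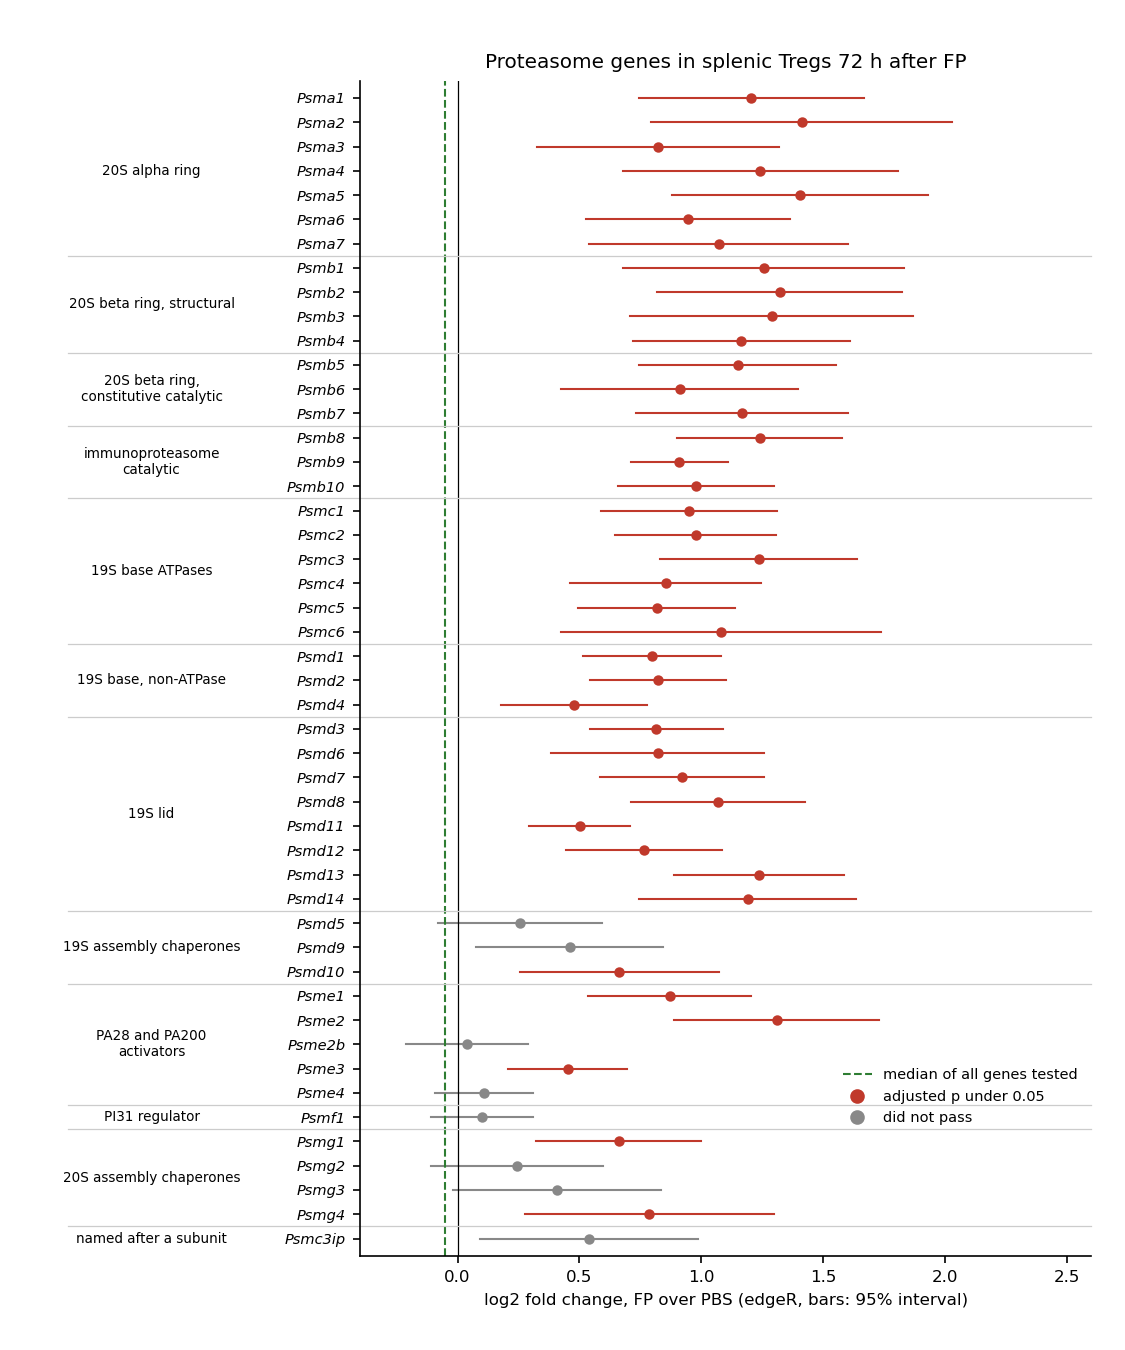
Log2 fold change of each tested proteasome gene (x axis, FP over PBS, edgeR, bars are 95% intervals) ordered by role in the particle. Red points passed an adjusted p of 0.05 and grey points did not. All alpha, beta and 19S particle genes are red, and the grey points are assembly chaperones, Psme2b, Psme4, Psmf1 and Psmc3ip.

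The summed level of the members was 5957, 6027, 4684 and 3838 CPM in FP replicates 1 to 4 and 2862, 2654 and 2463 CPM in PBS replicates 1 to 3. The groups did not overlap, and FP replicate 4 lay nearest to PBS. As a share of all counts, with no scaling factor, the members took 0.499%, 0.511%, 0.454% and 0.401% of the FP libraries and 0.306%, 0.297% and 0.282% of the PBS libraries. FP replicate 4 was lowest on this scale too.

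In the alpha ring, the outer ring that controls entry to the core, 7 of 7 tested genes rose, with a median log2 fold change of 1.21. Psma2 measured 225, 214, 134 and 106 CPM in the FP libraries and 72.4, 58.2 and 60.5 CPM in the PBS libraries. Its lowest FP library was well above the highest PBS library, and the rise on the log2 scale was 1.41 (SE 0.27, adjusted p = 0.00403, edgeR). Psma3 measured 174, 161, 95.2 and 97.1 CPM after FP and 74.3, 75.1 and 74.2 CPM after PBS. The PBS libraries were nearly equal while FP replicates 1 and 2 stood well above replicates 3 and 4, and the rise of 0.82 (SE 0.22) passed with an adjusted p of 0.0160. It missed the threshold without PBS replicate 3 (adjusted p = 0.0584) and with no filter on low counts (0.0624). The others were Psma5 at 1.40, Psma4 at 1.24, Psma1 at 1.21, Psma7 at 1.07 and Psma6 at 0.95, all log2 fold changes. Psma2 overlaps AW209491 on the same strand and Psma3 overlaps 3110056K07Rik on the other strand, which makes their counts less certain, since the strand setting of the counting is not given in the sources used here.

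Because the alpha genes moved together, their promoters were searched for CCAAT, the box bound by the NF-Y complex, on both strands of the 250 bases before the RefSeq start (GRCm38.p6). The box was found in 5 of 7 alpha genes and in 15 of the 42 members with a RefSeq window (35.7%), compared with 33.85% of all 32851 promoters and 40.0% of those of tested genes. A gene was counted if any of its windows had a match. Psma6 and Psmc2 each have another RefSeq start whose window held 0 matches (for Psma6 chr12:55398575-55398824). The match of Psma7 lay within an annotated exon. Over all members the share was thus near that of other promoters. The following 30-base stretches show the box in capitals for the 4 alpha genes where the stretch lies outside annotated exons, 5′ to 3′ on the gene's strand: Psma1 at chr7:114276198-114276227 (minus strand), Psma2 at chr13:14613175-14613204 (plus strand), Psma3 at chr12:70974471-70974500 (plus strand) and Psma6 at chr12:55384180-55384209 (plus strand).
Psma1: ccggagcttcctgCCAATcccacgttctca
Psma2: aggtgactctcctCCAATcagagcaaagaa
Psma3: gaccttagctcttCCAATaccagtttcagt
Psma6: tgaccactaggtgCCAATggaattcctgag
The box of Psma2 begins 54 bases and that of Psma3 begins 139 bases before the start. A match is a string of letters and says nothing of binding in these cells.

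The beta subunits without proteolytic sites all rose, 4 of 4, with a median log2 fold change of 1.27. Psmb2 measured 102, 108, 83.5 and 57.5 CPM after FP and 43.9, 31.2 and 30.04 CPM after PBS. It rose by 1.32 (SE 0.22, adjusted p = 0.00155, edgeR). PBS replicate 1 was the highest of the controls, and still below FP replicate 4. Psmb4 had the smallest rise of the class, from 75.4, 59.0 and 63.1 CPM in the PBS libraries to 178, 180.2, 132 and 101 CPM in the FP libraries (log2 fold change 1.17, SE 0.20, adjusted p = 0.00157, edgeR). Psmb3 and Psmb1 rose by 1.29 and 1.26 on the log2 scale. With the alpha ring and the constitutive catalytic subunits, 14 of 14 tested genes of the constitutive core rose, between 0.82 and 1.41 with a median of 1.19.

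The constitutive catalytic subunits were Psmb5 (ENSMUSG00000022193.6, chr14:54614119-54618022, minus strand), whose site cuts after hydrophobic residues, Psmb6 (ENSMUSG00000018286.6, chr11:70525367-70527858, plus strand), which cuts after acidic residues, and Psmb7 (ENSMUSG00000026750.6, chr2:38588036-38644087, minus strand), which cuts after basic residues. Coordinates are of GRCm38. Psmb5 measured 41.9, 44.8, 34.3 and 27.0 CPM after FP and 18.5, 16.8 and 14.7 CPM after PBS. Its groups did not overlap, and it rose by 1.15 (SE 0.18, adjusted p = 8.26e-04, edgeR). Psmb6 measured 87.8, 89.6, 59.2 and 47.3 CPM after FP and 40.8, 38.2 and 34.0 CPM after PBS. Its FP replicate 4 came closest to the controls, and the rise was 0.91 (SE 0.22, adjusted p = 0.00872, edgeR). Psmb7 measured 88.9, 76.1, 55.8 and 50.1 CPM after FP and 33.7, 29.3 and 27.3 CPM after PBS. The rise was 1.17 (SE 0.20, adjusted p = 0.00128, edgeR), and Psmb7 overlaps Nek6 and Gm13586 on the other strand.

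Proteasome genes are known targets of Nfe2l1, a transcription factor that binds antioxidant response elements when proteasome activity is low. The core of that element, TGACNNNGC, searched on both strands of the same 250 bases, was found in 5 of 42 members (11.9%: Psmb5, Psmb6, Psmc6, Psmd9 and Psmd12), in 10.2% of all promoters and in 14.04% of those of tested genes. Its letters TGAC also begin sites of AP-1 and CREB type factors. It was present in both constitutive catalytic genes that had a window and in 0 of the 3 immunoproteasome genes. The stretches for Psmb5 at chr14:54618024-54618053 (minus strand) and Psmb6 at chr11:70525327-70525356 (plus strand), with the match in capitals, are printed because these genes are the constitutive partners compared with the immunoproteasome.
Psmb5: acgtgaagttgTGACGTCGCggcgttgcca
Psmb6: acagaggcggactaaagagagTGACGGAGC
The matches begin 47 and 9 bases before the RefSeq start.

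The immunoproteasome subunits rose as well, 3 of 3 (median log2 fold change 0.98), and they passed in every fit that was run. Psmb8 (ENSMUSG00000024338.14, chr17:34197721-34201454, plus strand) measured 431, 437, 390.2 and 277 CPM after FP and 172, 163 and 152 CPM after PBS. Every FP library exceeded every PBS library, and the rise was 1.24 (SE 0.15, adjusted p = 2.05e-04, edgeR). Psmb9 (ENSMUSG00000096727.2, chr17:34181987-34187764, minus strand) measured 155, 172, 162 and 143 CPM after FP and 83.7, 86.7 and 81.8 CPM after PBS. Its FP libraries lay within 1.21-fold of each other, whereas those of the other catalytic genes spanned 1.57-fold to 1.90-fold, and it rose by 0.91 (SE 0.09, adjusted p = 4.82e-05, edgeR). Psmb10 (ENSMUSG00000031897.9, chr8:105935735-105938444, minus strand) measured 118, 131, 111 and 83.2 CPM after FP and 60.9, 55.6 and 51.7 CPM after PBS. The groups were apart, with a rise of 0.98 (SE 0.14, adjusted p = 5.55e-04, edgeR).

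Psmb8 and Psmb9 lie in the MHC class II region of chromosome 17, side by side with the peptide transporter genes. Psmb9 and Tap1 run in opposite directions with starts 211 bases apart and overlapping gene bodies, Psmb8 begins 495 bases after the end of Tap1, and Tap2 lies 2072 bases beyond Psmb8. Psmb8 also overlaps Gm20496 on the other strand, so a part of the counts of Psmb8 and Psmb9 may belong to other genes. The core of the interferon-stimulated response element, GAAANNGAA, was found in 0 of the 3 immunoproteasome windows and in 3 of the 42 members (Psmb3, Psmd4 and Psmd9), 7.14% as against 7.13% of all promoters. The letters TTCNNNGAA, the core bound by STAT factors, including the STAT5 proteins that act below the IL-2 receptor, occurred in 2 of 42 members (4.76%, Psmb8 and Psmg1) and in 7.02% of all promoters. In Psmb8 the match began 97 bases before the RefSeq start. It lay in an exon of another annotated transcript. Both shares were close to or below those of all promoters.

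**Figure D2:**
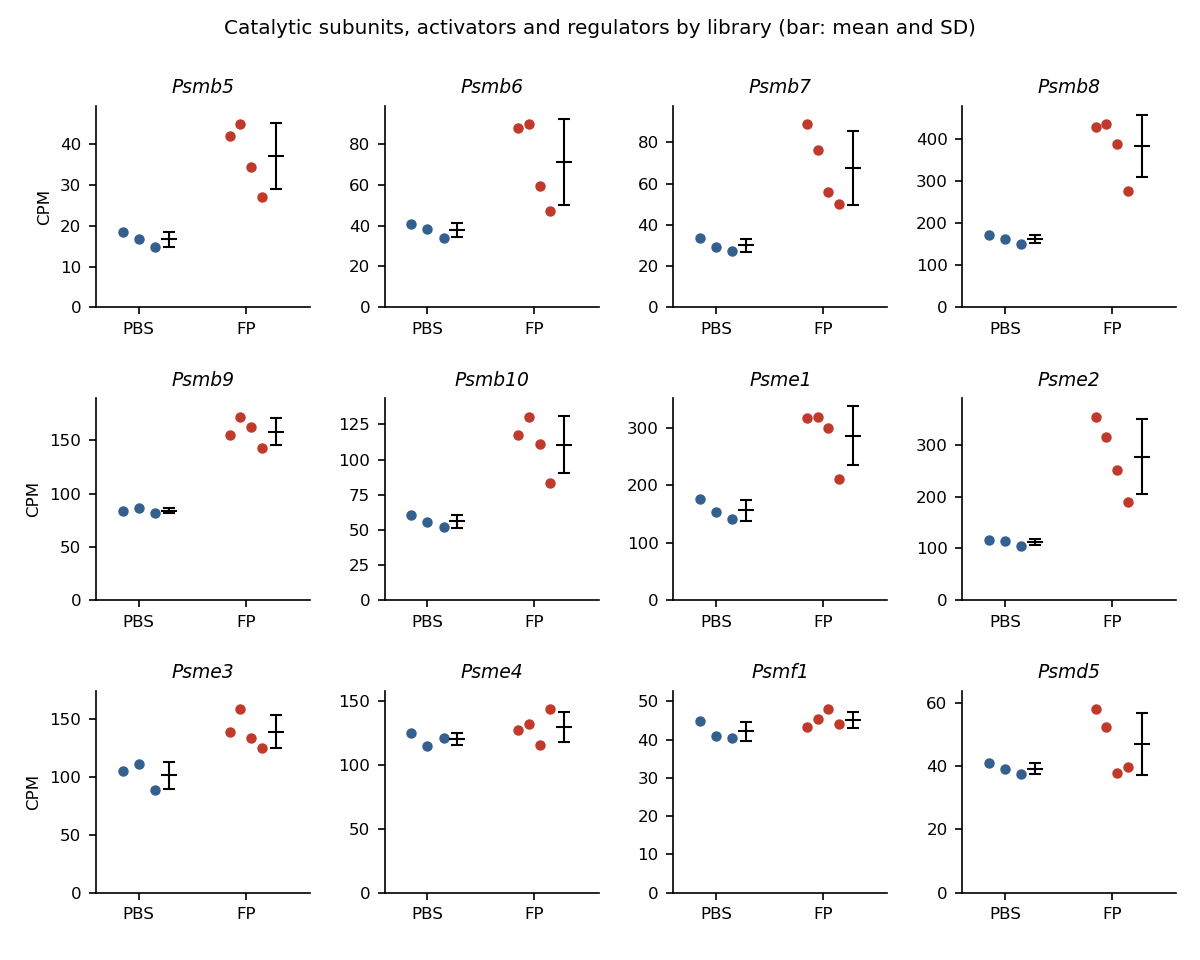
CPM (y axis, from 0) of the catalytic subunits, the activators Psme1 to Psme4, Psmf1 and Psmd5 in each library, blue for PBS and red for FP, with the mean and SD beside the points. The 6 catalytic genes and Psme1 to Psme3 have no overlap between groups, whereas the points of Psme4, Psmf1 and Psmd5 overlap.

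Whether the immunoproteasome changed relative to its constitutive partners was asked from the ratio of the counts within each library, which does not depend on scaling. The count of Psmb8 was 10.3, 9.74, 11.3 and 10.3 times that of Psmb5 in the FP libraries and 9.32, 9.69 and 10.3 times in the PBS libraries. The ranges overlapped, and the log2 ratio differed by 0.09 (3.38 ± 0.09, SD, n = 4, against 3.29 ± 0.07, SD, n = 3; two-sided exact permutation p = 0.229, adjusted over the 3 ratios 0.471). Shifts from -0.12 to 0.38 were not rejected by this test at 0.05. The ratio of Psmb9 to Psmb6 was 1.77, 1.92, 2.74 and 3.01 after FP and 2.05, 2.27 and 2.40 after PBS. FP replicates 1 and 2 lay below all controls and FP replicates 3 and 4 above all controls, so that the mean difference was 0.04 (exact permutation p = 0.886, adjusted 0.886) with shifts from -0.85 to 0.94 not rejected. The ratio of Psmb10 to Psmb7 was 1.32, 1.72, 1.99 and 1.66 after FP and 1.80, 1.90 and 1.89 after PBS. Only FP replicate 3 was above the controls, and the difference was -0.17 (exact permutation p = 0.314, adjusted 0.471) with shifts from -0.92 to 0.45 not rejected. The smallest p of this test is 0.0286, over 35 assignments of the libraries. The range of shifts not rejected was narrowest for the Psmb8 ratio.

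**Figure D3:**
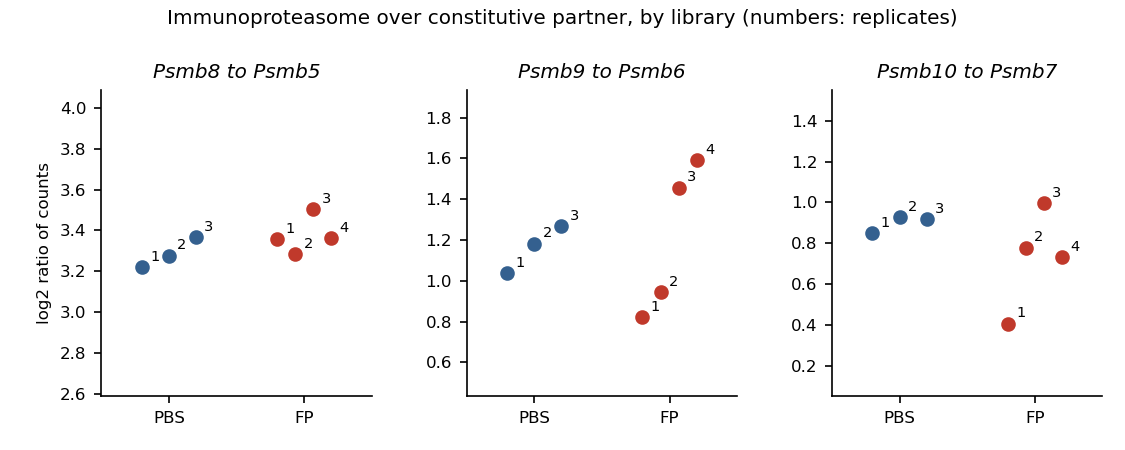
Log2 ratio of the counts of each immunoproteasome subunit to its constitutive partner (y axis) in each library, with replicate numbers beside the points. The PBS points lie close together. FP replicates 1 and 2 lie below and FP replicates 3 and 4 above the PBS points for Psmb9 to Psmb6.

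Levels of different genes were compared per length, as CPM per kilobase of the principal transcript. In PBS Tregs Psme1 (140.7 ± 16.2, SD, n = 3) and Psme2 (116 ± 6.45) were the highest of the 50 members, followed by Psmb8 (99.8 ± 6.24), Psma7 (77.0 ± 4.60), Psmb3 (67.8 ± 7.92) and Psmb9 (62.2 ± 1.83). Psme1 and Psme2 were less than 2 SD of Psme1 apart, and the same held for Psmb3 and Psmb9 by the SD of Psmb3. Psmb8 stood at 99.8 where its partner Psmb5 stood at 18.5 ± 2.09, whereas Psmb9 and Psmb10 (42.8 ± 3.52) were nearer to Psmb6 (47.2 ± 4.32) and Psmb7 (25.9 ± 2.84). This contrast and the order of the members depend on the length used. With all exons of a gene merged, the length of Psmb8 is 3381 rather than 1628 bases and that of Psmb7 3421 rather than 1160. The length of Psmb5 is 899 bases either way. After FP the same first 3 genes led, Psme2 at 288 ± 75.02, Psme1 at 257 ± 46.4 and Psmb8 at 236 ± 45.4 (SD, n = 4). The 3 immunoproteasome genes made up 66.8%, 68.5%, 73.5% and 71.9% of the summed CPM per kilobase of the 6 catalytic genes in the FP libraries and 68.0%, 69.3% and 70.1% in the PBS libraries. With merged exon lengths the shares were 66.6% to 72.3% in the FP libraries and 67.7% to 69.7% in the PBS libraries. The immunoproteasome subunits thus held most of the catalytic transcript per length in both groups, with overlapping ranges.

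The 19S particle rose in all 17 of its genes that the symbol rule admits, from 0.48 for Psmd4 to 1.24 for Psmd13. Their median log2 fold change was 0.85. Among the 6 base ATPases, which thread substrates into the core, Psmc3 had the largest rise, with 188, 211, 158 and 117 CPM after FP and 78.0, 72.9 and 63.6 CPM after PBS (log2 fold change 1.24, SE 0.18, adjusted p = 6.48e-04, edgeR). Psmc5 had the smallest, with 76.2, 94.2, 83.3 and 60.1 CPM after FP and 47.5, 45.5 and 40.4 CPM after PBS (0.82, SE 0.15, adjusted p = 0.00164, edgeR). In both genes the FP libraries were all above the PBS libraries, and FP replicate 4 was the lowest of its group. Psmc6 rose by 1.08 with the widest error of the ATPases (SE 0.29, adjusted p = 0.0179, edgeR), from 50.1, 47.4 and 42.3 CPM to 131, 133, 65.9 and 65.9 CPM. The FP libraries spanned 2.01-fold, with replicates 1 and 2 high and replicates 3 and 4 low, and the call was lost without PBS replicate 2 (adjusted p = 0.0534), without PBS replicate 3 (0.0726) and with no filter (0.0820). Psmc2, Psmc1 and Psmc4 rose by 0.98, 0.95 and 0.85.

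Of the non-ATPase base proteins, Psmd2 and Psmd1 are scaffolds, and Psmd4 is a receptor for ubiquitin chains. Psmd2 measured 218, 240, 202 and 171 CPM after FP and 129.8, 118 and 104 CPM after PBS, and rose by 0.82 (SE 0.13, adjusted p = 6.94e-04, edgeR). Psmd1 rose by 0.80. Psmd4 measured 106, 123, 92.5 and 82.4 CPM after FP and 79.1, 72.1 and 66.1 CPM after PBS. Its FP replicate 4 was barely above PBS replicate 1, and its rise of 0.48 (SE 0.14, adjusted p = 0.0175, edgeR) missed the threshold with library size alone (adjusted p = 0.143), with upper-quartile factors (0.0592), without PBS replicate 2 (0.0617) and without PBS replicate 3 (0.0845).

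The lid, which removes ubiquitin from substrates, rose in 8 of 8 genes that the symbol rule admits, and the order below is among these. Psmd13, a structural lid subunit, had the largest change, with 105, 102, 83.9 and 65.0 CPM after FP against 38.5, 37.5 and 37.0 CPM after PBS (log2 fold change 1.24, SE 0.16, adjusted p = 2.50e-04, edgeR). It overlaps Gm15542 on the same strand and Sirt3 on the other. Psmd14, the deubiquitinase of the lid, followed at 1.19, and Psmd8 at 1.07. The smallest change was in Psmd11, a lid scaffold, with 113, 115, 103 and 96.4 CPM after FP against 76.1, 79.7 and 70.7 CPM after PBS (0.50, SE 0.09, adjusted p = 0.00217, edgeR). Psmd11 varied least of the called members among the FP libraries, 1.19-fold from lowest to highest, and lost its call with library size alone (adjusted p = 0.0691). Psmd7, Psmd6, Psmd3 and Psmd12 rose by 0.92, 0.82, 0.82 and 0.77.

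The summed CPM of the core genes was 1.0, 0.892, 0.777 and 0.756 times that of the 19S genes in the FP libraries and 0.740, 0.689 and 0.740 times in the PBS libraries. The FP values were all above the PBS values, with FP replicates 3 and 4 just above the highest PBS value and replicates 1 and 2 further above it. The difference between the core and the 19S particle was not tested.

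Among the activators, the genes of PA28, Psme1 and Psme2, rose. Psme1 measured 316, 319, 299.7 and 210.0 CPM after FP and 176, 152 and 141 CPM after PBS, and rose by 0.87 (SE 0.15, adjusted p = 0.00144, edgeR). Psme2 measured 354, 314, 250.5 and 190.0 CPM after FP and 116, 115 and 105 CPM after PBS, and rose by 1.31 (SE 0.19, adjusted p = 5.93e-04, edgeR). Both genes lie on chromosome 14, 5911 bases apart and on opposite strands, and neither had overlapping groups. Psme3, a nuclear activator related to PA28, measured 139, 159, 133 and 125 CPM after FP and 105, 111 and 88.7 CPM after PBS. It rose by 0.45 (SE 0.11, adjusted p = 0.00856, edgeR) and lost its call without PBS replicate 3 (adjusted p = 0.0539) and under library size alone (0.184).

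Psme4, the gene of the nuclear activator PA200, did not pass. It measured 127, 131, 116 and 143 CPM after FP and 125, 115 and 121 CPM after PBS, which gave 0.11 on the log2 scale (SE 0.09, adjusted p = 0.369, edgeR, 95% interval -0.09 to 0.31). FP replicate 4, lowest in most other members, was the highest library here. Psmf1, the gene of PI31, a protein that binds the core and can inhibit it, measured 43.2, 45.3, 47.9 and 44.1 CPM after FP and 45.0, 40.9 and 40.5 CPM after PBS (0.10, SE 0.09, adjusted p = 0.424, edgeR, 95% interval -0.11 to 0.31). The intervals of both genes end well below the median of the members. Psme2b, a copy related to Psme2, measured 29.1, 29.0, 29.8 and 31.6 CPM after FP and 30.9, 25.5 and 30.9 CPM after PBS (0.04, SE 0.11, adjusted p = 0.809, edgeR). Its transcript matches that of Psme2 in 789 of 794 aligned bases (99.4%), and 60.2% of its 75-base stretches also occur in Psme2. The counts of Psme2b therefore depend on how reads with several matches were handled and are uncertain. The counts and level of Psme2 carry the same doubt.

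Of the chaperones that build the particle, 3 of 7 passed, where 21.0% of all genes tested were called higher. For the core, Psmg1 and Psmg2 act as a pair in building the alpha ring, and Psmg3 and Psmg4 as another. Psmg1 measured 21.7, 18.2, 17.3 and 15.3 CPM after FP and 10.7, 11.7 and 11.9 CPM after PBS, and rose by 0.66 (SE 0.15, adjusted p = 0.00656, edgeR). Its partner Psmg2 measured 20.1, 17.1, 14.4 and 14.0 CPM after FP and 14.7, 13.6 and 13.1 CPM after PBS, with overlapping groups, and did not pass (0.24, SE 0.16, adjusted p = 0.249, edgeR). Psmg4 measured 13.01, 15.4, 11.3 and 8.41 CPM after FP and 6.89, 8.28 and 5.60 CPM after PBS. It rose by 0.79 (SE 0.23, adjusted p = 0.0207, edgeR), with FP replicate 4 just above the highest control. Psmg3 measured 5.70, 7.55, 5.59 and 6.20 CPM after FP and 4.77, 4.91 and 4.47 CPM after PBS. Its groups did not overlap, but at 51 to 87 counts per library the difference did not pass (0.41, SE 0.19, adjusted p = 0.116, edgeR). The call of Psmg1 was lost with library size alone (adjusted p = 0.0554), and that of Psmg4 with library size alone (0.0688), without FP replicate 2 (0.0524) and without PBS replicate 3 (0.0947).

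For the 19S base, Psmd10 measured 19.7, 24.5, 16.6 and 14.6 CPM after FP and 12.4, 11.5 and 11.7 CPM after PBS. It rose by 0.66 (SE 0.18, adjusted p = 0.0158, edgeR), and the call was lost with library size alone (adjusted p = 0.0695), without PBS replicate 2 (0.0612) and without PBS replicate 3 (0.0593). Psmd5 measured 57.9, 52.2, 37.9 and 39.8 CPM after FP and 41.0, 39.0 and 37.7 CPM after PBS. FP replicates 1 and 2 were above the controls and replicates 3 and 4 among them, and the gene did not pass (0.26, SE 0.15, adjusted p = 0.200, edgeR). Psmd9 missed the threshold narrowly (0.46, SE 0.17, adjusted p = 0.0560, edgeR) and passed with DESeq2 size factors (adjusted p = 0.0464), in the DESeq2 test (0.0374), with no filter (0.0369) and without FP replicate 4 (0.00432). Psmc3ip, which the symbol rule admits, acts in meiotic recombination and is not a proteasome subunit. Its log2 fold change was 0.54 (SE 0.20, adjusted p = 0.0560, edgeR), and it passed with DESeq2 size factors (adjusted p = 0.0461), in the DESeq2 test (0.0432) and without FP replicate 4 (0.0366).

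The order of the FP libraries was alike across the called members. FP replicate 4 was the lowest FP library in 39 of 40 and FP replicate 3 in 1, and the highest was FP replicate 2 in 27 and FP replicate 1 in 13. From lowest to highest the FP libraries spanned 1.19-fold to 2.20-fold (median 1.72), and the PBS libraries 1.01-fold to 1.48-fold (median 1.20). The FP group thus held most of the spread. FP replicates 1 and 2 had the lowest TMM factors (0.839 and 0.849), FP replicates 3 and 4 had 0.971 and 1.05, and the PBS libraries had 1.07 to 1.15.

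**Figure D4:**
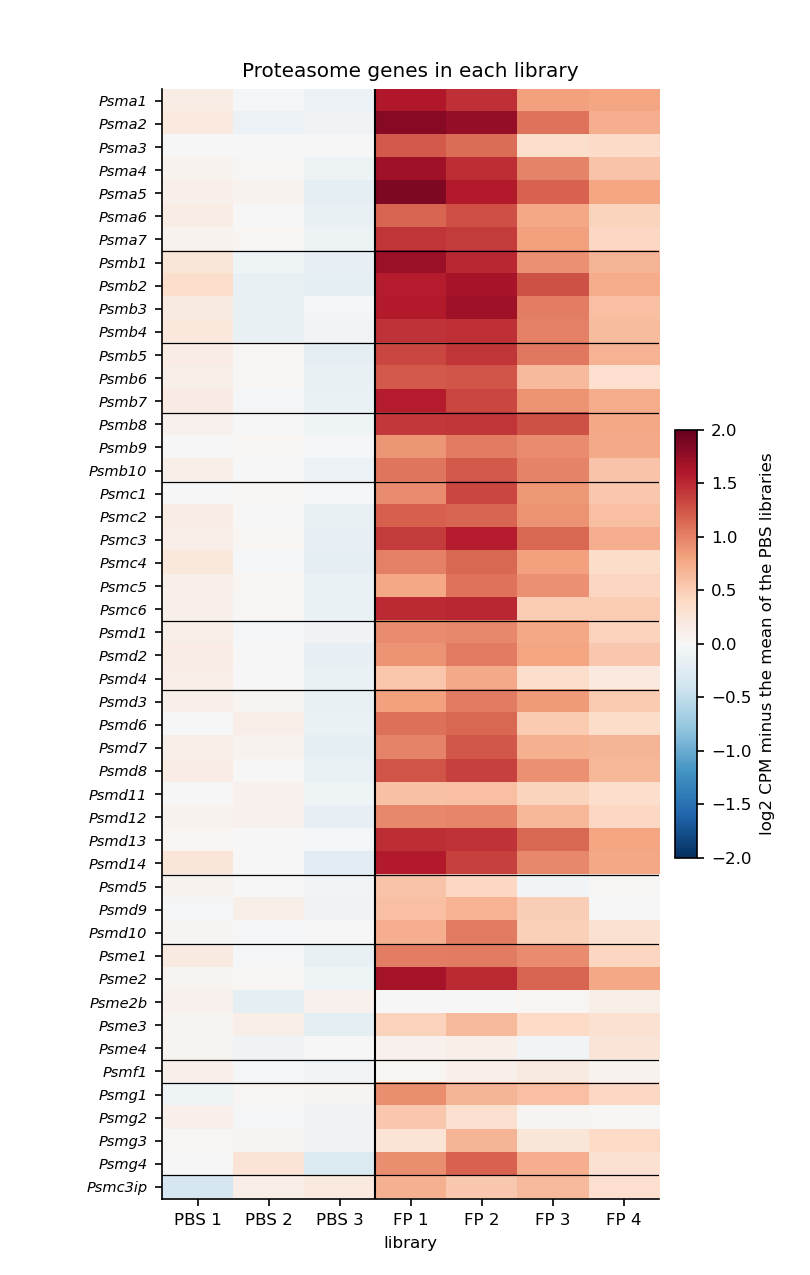
Log2 CPM of each tested member in each library minus the mean of the 3 PBS libraries (colour, red above and blue below), with rows grouped by role. FP replicates 1 and 2 are the deepest red in most rows and FP replicate 4 the palest, while the rows of Psme2b, Psme4 and Psmf1 stay pale throughout.

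Proteasome proteins whose symbols fall outside the rule were followed as a separate list. Of the 10 found, 6 rose and 4 did not pass (median log2 fold change 0.35), where 21.0% of all genes tested were called higher. Pomp, the maturation factor of the core, rose most, by 1.45 on the log2 scale, with 138 ± 34.3 CPM in the FP group (SD, n = 4) and 50.5 ± 4.03 CPM in the PBS group (SD, n = 3; adjusted p = 2.95e-04, edgeR). Uchl5, a deubiquitinase of the 19S base, and Txnl1, a thioredoxin-like protein bound to the lid, rose by 0.92 and 0.82. Sem1, the smallest lid subunit, rose by 1.28 and was named after its value was seen.

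Of 13 factors listed as regulators of proteasome or immunoproteasome genes, 7 did not pass, 5 rose and 1 fell (median log2 fold change 0.21). The shares over all genes tested were 21.0% higher and 18.5% lower, and the list was not tested as a set. Foxm1, a transcription factor of dividing cells, had 75.3 ± 18.2 CPM in the FP group (SD, n = 4) and 4.47 ± 0.99 CPM in the PBS group (SD, n = 3), a rise of 4.06 on the log2 scale. Smaller rises were those of Nfyb, a subunit of NF-Y, by 0.43, Irf1 by 0.34 and Stat3 by 0.30. All 3 of these lost their calls with library size alone, with upper-quartile factors and without FP replicate 2, FP replicate 3, PBS replicate 2 or PBS replicate 3, and Nfyb and Irf1 also without FP replicate 1. Irf8, an interferon regulatory factor that is also high in myeloid cells, fell by 0.47 (adjusted p = 0.0222, edgeR), a call lost without PBS replicate 2 (0.128) and without PBS replicate 3 (0.0762). Nfe2l1 was at 83.6 ± 10.7 CPM in the FP group (SD, n = 4) against 91.8 ± 9.89 CPM in the PBS group (SD, n = 3), and neither it (log2 fold change -0.14, adjusted p = 0.382, edgeR) nor its activating protease Ddi2 (-0.23, adjusted p = 0.0550, edgeR) passed. Upper-quartile factors (adjusted p = 0.0191 and 0.00370) and library size alone (0.0202 and 0.00797) called both lower. Nlrc5, the transactivator of MHC class I genes, did not pass (0.29, adjusted p = 0.118, edgeR). Irf1, Nfe2l1, Ddi2 and Nlrc5 were named after their values were seen.

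Upstream of the proteasome, 7 of 13 genes of ubiquitin and of delivery to the proteasome rose and 1 fell, with a median log2 fold change of 0.60. For comparison, 21.0% of all genes tested were called higher and 18.5% lower. Uba1, the main ubiquitin-activating enzyme, rose by 0.79, and Vcp, the segregase that extracts ubiquitinated proteins, by 0.72 together with its cofactor Nploc4 by 0.60. Ubqln4, a shuttle protein, fell by 0.49 (adjusted p = 0.0104, edgeR) and lost the call without PBS replicate 2 (0.0669). Downstream, 9 of 11 genes of peptide loading on MHC class I rose and 2 did not pass, beside the same shares over all genes. The median was 0.70. Pdia3, a chaperone of the loading complex, rose by 0.96, the transporter subunit Tap2 by 0.70 and the loading factor Tapbp by 0.75. Tap1, which shares its promoter region with Psmb9, rose by 0.55, with the call lost under library size alone (adjusted p = 0.0839). B2m, the light chain of MHC class I, rose by 0.97 and lost the call without PBS replicate 2 (0.0530), without PBS replicate 3 (0.0625) and with no filter (0.0861). The class I gene H2-D1 rose by 0.59, whereas H2-K1 did not pass (0.21, adjusted p = 0.198, edgeR). Tap1, B2m, H2-D1 and H2-K1 were named after their values were seen.

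Total counts ran from 9956509 to 13429878 per library, and correlations of log2 CPM over genes were 0.974 to 0.991 within groups and 0.896 to 0.946 between them. Treg and T cell markers were abundant, with a summed level of 5600 to 6656 CPM in the FP libraries and 3623 to 4082 CPM in the PBS libraries. Foxp3 was at 540 ± 52.9 CPM after FP and 491 ± 7.24 CPM after PBS (log2 fold change 0.14, not passed), and the highest group mean of the list was that of Il2ra after FP and of Ikzf2 after PBS. The 6 proliferation markers, of which Mki67 had the highest FP mean and Pcna the highest PBS mean, all rose: their sum was 3213, 3417, 3040 and 1794 CPM in FP replicates 1 to 4 and 175 to 238 CPM in the PBS libraries. FP replicate 4 was thus the lowest FP library for the proliferation sum and for 39 of 40 called members. FP replicate 4 was also lowest for the summed ubiquitin and delivery genes and peptide loading genes. For the summed Treg and T cell markers it was lowest by little (5600 CPM, with 5663 CPM in FP replicate 3). It was not the lowest for the summed regulators or macrophage markers. All 14 markers of monocytes and macrophages, of which Vcam1 had the highest PBS mean, fell, from a sum of 757 to 1906 CPM in the PBS libraries to 24.8 to 140.3 CPM in the FP libraries. Sums for other cells were low in both groups: B cells 26.5 to 34.2 CPM after FP and 27.2 to 49.5 CPM after PBS (1 of 8 higher, Cd79b, and 3 lower), dendritic cells 11.7 to 15.7 and 24.4 to 35.6 CPM (3 of 3 tested lower, the most abundant by group mean being Zbtb46), red cells 9.98 to 28.2 and 12.7 to 29.9 CPM (5 tested, with Hbb-bs, which did not pass, the most abundant by group mean), and CD8 T and NK cells 8.84 to 13.9 and 13.3 to 15.3 CPM (1 of 3 tested lower, and Cd8b1 the most abundant by group mean). Over all genes tested, 21.0% were called higher and 18.5% lower, and the marker lists were not tested as sets. No marker was at 0 in every library. The part of proliferation and of macrophage RNA in the proteasome values was not tested.

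**Figure D5:**
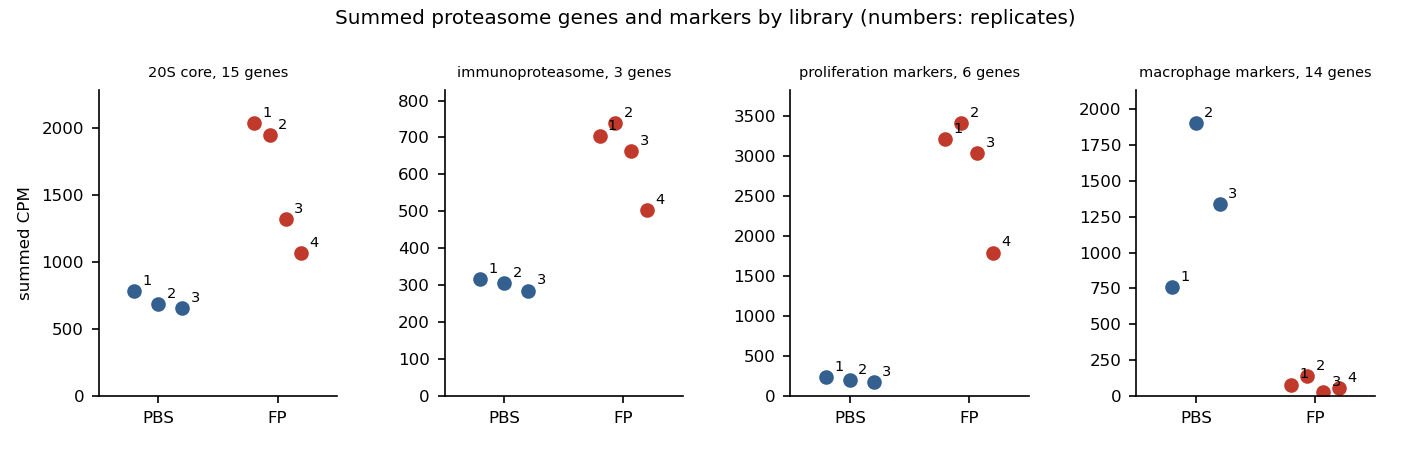
Summed CPM (y axis, from 0) of the 20S core genes, the immunoproteasome genes, the proliferation markers and the macrophage markers in each library, with replicate numbers beside the points. FP replicate 4 is the lowest FP library for the core, the immunoproteasome and proliferation, and the macrophage sums of all PBS libraries lie above those of all FP libraries.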

How the data were processed

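RNA of sorted splenic Tregs was sequenced in 4 FP and 3 PBS samples. Per the labels' protocols, the authors isolated RNA with TRIzol and a column and made libraries from 25 ng of total RNA after removal of ribosomal RNA. Per the design text and the submitters' processing notes, reads were mapped to GRCm38 with STAR 2.5.0b and counted per GENCODE M13 gene with featureCounts 1.5.0. The values the authors deposited are raw counts, listed by gene, not normalized. The strand setting and the handling of reads with several matches are not given in the sources used here.

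Symbols were taken from GENCODE M21 of the same build, which matched 50376 of 51138 identifiers. The symbol rule also met 4 pseudogenes, which were left out. The members and all gene lists were chosen with earlier results of these data known. Genes named from the lists were, by rule, those called in the rarer direction and the 3 with the smallest p in the other. Others are marked as named after their values were seen. The values of 1 listed gene are not reported here.

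Counts were tested with edgeR 4.0.16 (R 4.3.3): filterByExpr, TMM factors, the robust quasi-likelihood test, and Benjamini-Hochberg adjustment over the 15954 genes tested with a threshold of 0.05. CPM use TMM-scaled library sizes. Log2 ratios within a library used counts plus 0.5 and a two-sided exact permutation test (scipy 1.17.1). The floor of 3 counts that a count of 0 allows was 0.214 to 0.322 CPM, and it covers counting error only. Only the edgeR fit was tested on simulated data, in which far fewer genes changed than were called here. Alternatives were DESeq2 1.42.0 (test and size factors), upper-quartile factors, library size alone, no filter, at least 1 CPM in 3 libraries, the replicate number as a block, and leaving out each library. Promoter sequences are from RefSeq (GRCm38.p6), with windows found for 42 of 50 members. Of the members, 13 overlap another tested gene.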

Additional observations from a re-analysis of the deposited data

How the results depend on the processing

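The count of members called higher was 40, and it was 42 with DESeq2 size factors and in the DESeq2 test, 40 with at least 1 CPM in 3 libraries, 39 with no filter, 39 with upper-quartile factors, 34 with library size alone, and 34 to 42 when 1 library was left out, with the lowest count without PBS replicate 3 and the highest without FP replicate 4. No member was called lower in any of these fits. Over all genes the calls split into 3355 higher and 2953 lower with TMM factors, 2399 and 4823 with upper-quartile factors, and 2023 and 5046 with library size alone. With library size alone the log2 fold changes turned to -0.028 for Psmd5, -0.22 for Psme2b, -0.15 for Psme4, -0.16 for Psmf1 and -0.037 for Psmg2. With upper-quartile factors they turned to -0.16 for Psme2b, -0.093 for Psme4 and -0.10 for Psmf1. Psme2b ranged from -0.048 (without PBS replicate 2) to 0.11 (without PBS replicate 1) when 1 library was left out. None of these genes had passed the test, and the cause was not tested.

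The difference between groups (FP minus PBS) of the log2 ratio Psmb9 to Psmb6 ranged from -0.089 to 0.17 when 1 library was left out (-0.04 without FP replicate 3, -0.089 without FP replicate 4, -0.02 without PBS replicate 1), and the difference of the DESeq2 log2 fold changes was -4.9708e-04. The sign of this difference is therefore not set by these libraries. The same difference of the log2 ratio Psmb8 to Psmb5 ranged from 0.05 to 0.13, and that of the log2 ratio Psmb10 to Psmb7 from -0.26 to -0.064.

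The replicate numbers of the titles gave deviation correlations of 0.219, 0.0702 and 0.0966 between same-numbered FP and PBS libraries, so they were not taken to pair the samples. FP replicate 2 correlated more with PBS replicate 1 than with its own number, and PBS replicate 3 more with FP replicate 4. With the replicate block 43 members were higher, Psmd5, Psmd9 and Psmc3ip being added. Replicate number 4 occurs only in the FP group, so FP replicate 4 added nothing to the group comparison in that fit. Leaving out FP replicate 4 without a block gave 42. A limit of depth applies to Psma8 and Psmb11, at 0 to 5 counts per library, whose change was not measurable here.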

Other observations

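None of 51 values, the 48 tested members and the 3 partner ratios, had an FP library that stood apart from the other FP libraries by Dixon's gap test at its 95% critical value.

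The constitutive core genes differed from each other by about as much in both groups. Per kilobase of transcript, the highest of the 14 tested core genes was 3.43 to 4.45 times the lowest within an FP library and 3.92 to 4.38 times within a PBS library.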
